A study of Bos taurus with 53 samples.

Results

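The genes described here encode 6 proteins of steroid synthesis, STAR, CYP11A1, CYP17A1, CYP19A1, FDX1 and FDXR, and were taken from the deposited expression table by gene symbol. All 6 symbols were found among the 24596 features of the table, and all 6 passed the filter on low counts in every comparison. Messenger RNA had been sequenced from individual cattle embryos recovered on day 14, in 53 libraries from 30 embryos and 7 recipient cows. The embryos came from oocytes matured in vitro in 1 of 3 media and fertilised and cultured alike. CONTROL medium held neither fatty acids nor solvent. BASAL medium had 0.45% ethanol as solvent for 3 fatty acids, palmitic at 23 µM, oleic at 21 µM and stearic at 28 µM. HIGH PA medium differed from BASAL in its palmitic acid, at 150 µM. Recovered embryos were scored as spherical, ovoid or tubular and dissected into embryonic disc (ED) and extraembryonic tissue (EX). The discs comprised 12 BASAL, 8 HIGH PA and 3 CONTROL libraries and the extraembryonic samples 14 BASAL, 10 HIGH PA and 4 CONTROL, beside 2 undissected HIGH PA embryos (EX+ED). All CONTROL embryos came from cow 813, which also gave BASAL and HIGH PA embryos. Embryos of the same cow shared a uterus, and shape was observed and not assigned.

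Steroid synthesis starts in the mitochondrion. STAR carries cholesterol to the inner mitochondrial membrane, where CYP11A1 cuts off its side chain and makes pregnenolone. FDXR and FDX1, ferredoxin reductase and ferredoxin, pass electrons from NADPH to CYP11A1, and both also serve iron-sulfur and other mitochondrial enzymes in tissues that make no steroids. CYP17A1 hydroxylates pregnenolone and progesterone and also makes androgens, and CYP19A1, aromatase, turns androgens into estrogens. In cattle, trophoblast of the placenta makes progesterone and estrogens.

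In the UMD3.1 coordinates of the table, STAR (ENSBTAG00000033345) lies on chromosome 27 from 33016929 to 33024353 and CYP11A1 (ENSBTAG00000006934) on chromosome 21 from 34724306 to 34734990. CYP17A1 (ENSBTAG00000014335) lies on chromosome 26 from 23694361 to 23700404 and CYP19A1 (ENSBTAG00000014890) on chromosome 10 from 59227894 to 59282939. FDX1 (ENSBTAG00000011793) is on chromosome 15 from 20772022 to 20807753 and FDXR (ENSBTAG00000006525) on chromosome 19 from 57164030 to 57175524. Of their exon reads, between 96.7% (STAR) and 100.0% (CYP11A1, CYP19A1, FDX1 and FDXR) were placed uniquely. No source used here says whether counting was by strand, so reads of an antisense transcript cannot be told apart.

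Library depth set the precision for the rarer members. Exon reads ran from 6814 to 6167850 in discs and from 9810 to 19533821 in extraembryonic libraries. ED BASAL replicate 7 and EX BASAL replicate 7, the libraries under 10000 reads, stayed in the fits but are left out of all levels below. In the remaining 22 discs the median library held 20.5 reads of STAR, 7 of CYP11A1, 8.5 of CYP17A1 and 6 of CYP19A1, against 80.5 of FDX1 and 71 of FDXR. In 27 extraembryonic libraries the corresponding medians were 48, 36, 49, 10, 232 and 298 reads.

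All 6 genes were transcribed in both tissues, and the electron carriers stood far above the others. Per length, in CPM (reads per 1000000 reads of the library) per 1000 bases of exon, the median disc had 21.4 for FDX1 and 17.5 for FDXR, followed by STAR (4.16), CYP11A1 (2.04), CYP17A1 (1.72) and CYP19A1 (0.580). The median extraembryonic library had 22.2 for FDX1 and 20.8 for FDXR, then CYP17A1 (3.70), CYP11A1 (3.61), STAR (2.65) and CYP19A1 (0.334). FDXR exceeded the next gene in 22 of 22 discs and 27 of 27 extraembryonic libraries. CYP19A1 was below the gene before it in 17 of 22 discs and 25 of 27 extraembryonic libraries. The order between these ends was not steady. FDX1 exceeded FDXR in 16 of 22 discs and 17 of 27 extraembryonic libraries, and CYP11A1 exceeded CYP17A1 in 13 of 22 discs. In extraembryonic tissue CYP17A1 exceeded CYP11A1 in 14 of 27 libraries and CYP11A1 exceeded STAR in 13 of 27.

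FDX1 and FDXR also varied least. FDX1 ran from 19.5 to 49.4 CPM in discs (median 29.1) and from 11.8 to 51.0 CPM in extraembryonic tissue (median 30.3). STAR ran from 0 to 42.2 CPM in discs (median 11.3) and from 2.34 to 152 CPM in extraembryonic tissue (median 7.23). The library labelled ED CONTROL replicate 1, with 284848 reads, had 0 reads of STAR, CYP11A1, CYP17A1 and CYP19A1, and at this depth a count of 0 allows up to 10.5 CPM. The plot of members by tissue and medium shows these levels.

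**Figure D1:**
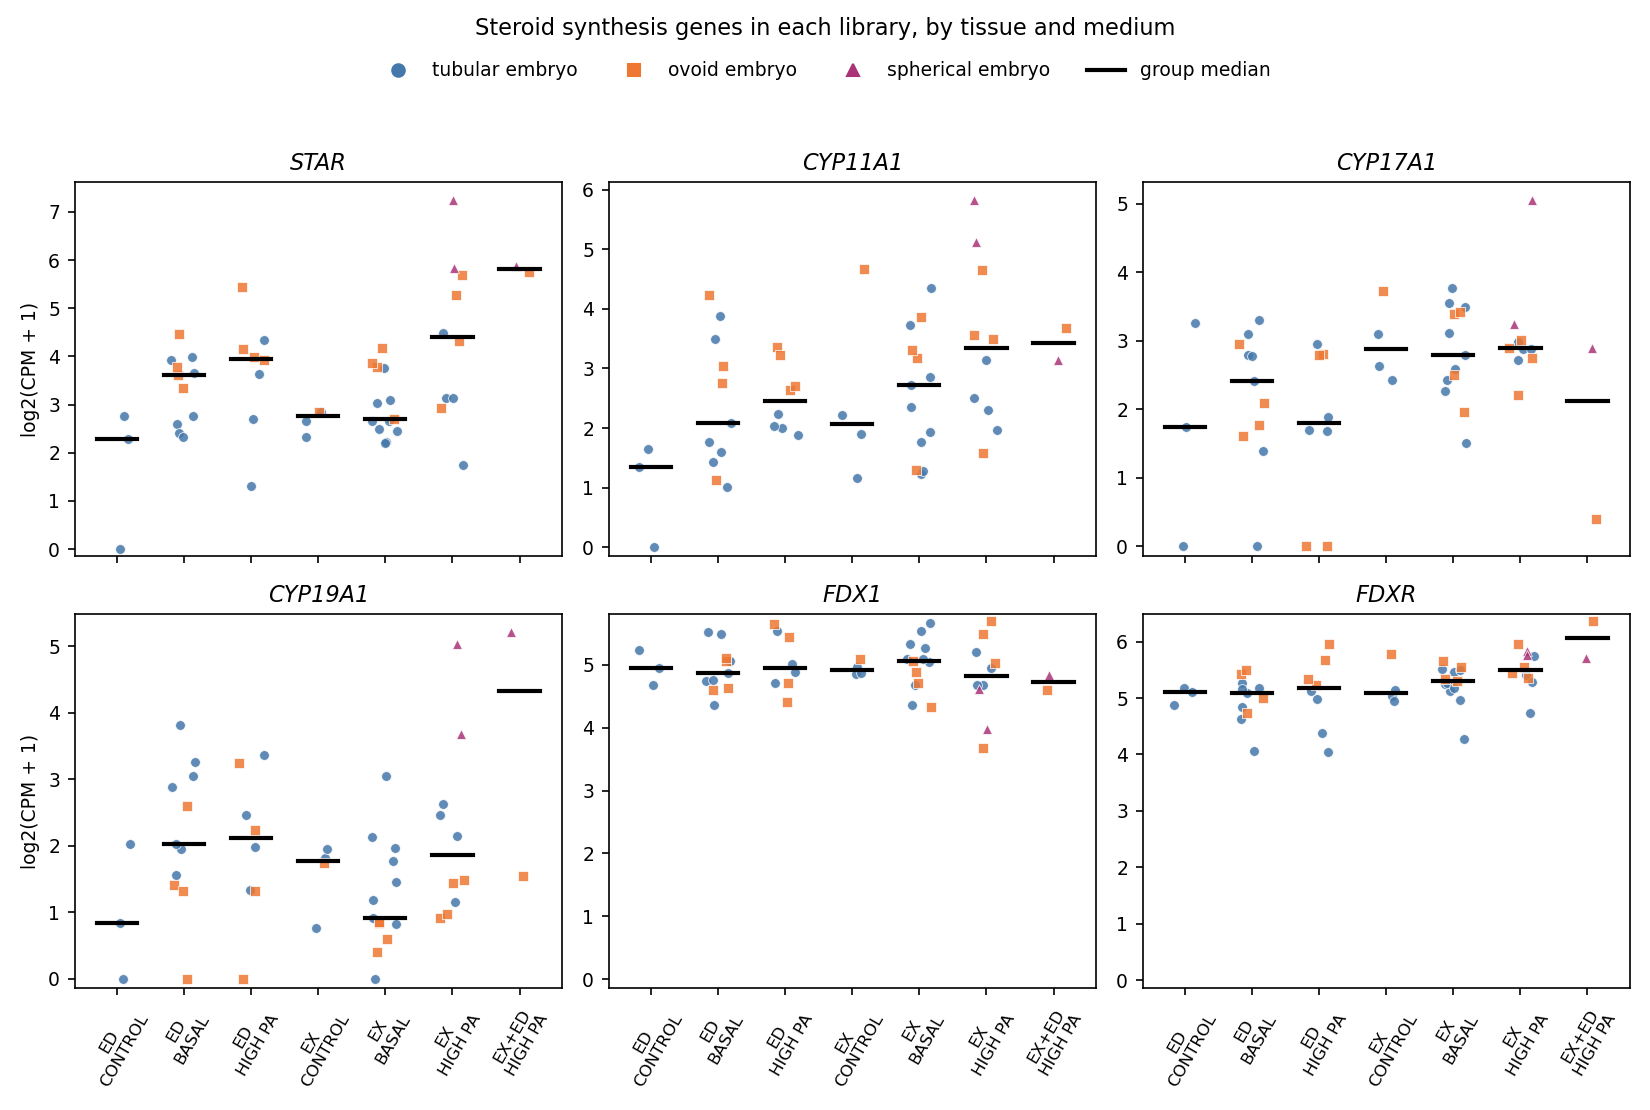
Level of each member in every library over 10000 reads as log2(CPM + 1), by tissue (ED disc, EX extraembryonic, EX+ED undissected) and medium, with 1 point for each library, its form for embryo shape and a bar at the group median. FDX1 and FDXR lie in narrow bands between 11.8 and 81.6 CPM, while STAR, CYP11A1 and CYP19A1 reach their highest extraembryonic values in spherical HIGH PA embryos.

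Both tissues of an embryo were set side by side to see where the pathway's transcripts were more abundant. CYP17A1, FDXR and CYP11A1 were higher in extraembryonic tissue, CYP19A1 was higher in the disc, and STAR and FDX1 were not called. Thus 3 members were higher and 1 lower, in a comparison that called 25.2% of all tested genes higher and 24.8% lower, 50.0% in all (4 members and 55.3% of genes had an unadjusted p under 0.05). The members' median log2 fold change was 0.35, beside 0.02 over all 10022 genes tested.

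CYP17A1 showed the largest difference. It ran from 0 to 8.90 CPM in discs (median 2.97) and from 1.84 to 32.4 CPM in extraembryonic tissue (median 6.38). Outside the 2 spherical extraembryonic libraries, which had no disc and did not enter this comparison, the highest value was 12.7 CPM. The ranges overlapped, but extraembryonic tissue was higher in 20 of 22 embryos. The fitted log2 fold change was 0.96 (SE 0.21, adjusted p = 0.000423). Here and below, p-values come from edgeR's quasi-likelihood test, adjusted by Benjamini-Hochberg over all genes, with the embryo as a block in this comparison. The CYP17A1 difference was positive in BASAL (1.02), HIGH PA (1.04) and CONTROL embryos (0.32) taken alone, and of these only BASAL was called.

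FDXR ran from 15.5 to 61.0 CPM in discs (median 33.6) and from 18.3 to 61.2 CPM in extraembryonic tissue (median 39.8 over the 22 embryos with both libraries). Extraembryonic tissue was higher in 18 of 22 embryos, and the log2 fold change was 0.54 (SE 0.10, adjusted p = 9.24e-05). By medium it was higher in 11 of 11 BASAL, 6 of 8 HIGH PA and 1 of 3 CONTROL embryos. Taken alone, BASAL embryos gave a called difference of 0.56 (adjusted p = 0.00407), HIGH PA embryos 0.62 (adjusted p = 0.0571) and CONTROL embryos 0.12 (adjusted p = 0.758). Its partner FDX1 was higher in 12 of 22 embryos, with a fitted log2 difference of 0.16 and a 95% interval from -0.04 to 0.36 (adjusted p = 0.167).

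CYP11A1 ran from 0 to 17.9 CPM in discs (median 3.17) and from 1.23 to 55.9 CPM in extraembryonic tissue (median 5.62). Outside the spherical embryos its extraembryonic maximum was 24.3 CPM. Extraembryonic tissue was higher in 16 of 22 embryos. The log2 fold change was 0.56 (SE 0.23, adjusted p = 0.0424). The call lay near the threshold and was lost in 8 of 12 alternative fits, over which the log2 fold change ran from 0.34 to 0.66. Without the embryo of ED BASAL replicate 7, a disc library under 10000 reads, the adjusted p was 0.0538, and without the embryo of ED BASAL replicate 12, the disc library with the lowest sum of epiblast markers, it was 0.0519.

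CYP19A1 went the other way. It ran from 0 to 13.1 CPM in discs (median 3.00) and from 0 to 31.8 CPM in extraembryonic tissue (median 1.73). Outside the spherical embryos, which had no disc to compare, its extraembryonic maximum was 7.27 CPM. Extraembryonic tissue was lower in 17 of 22 embryos, 10 of them among the 11 BASAL embryos, and the log2 fold change was -0.83 (SE 0.25, adjusted p = 0.00748). In the 3 CONTROL embryos the fitted value was 0.12 and not called. STAR was higher in extraembryonic tissue in 10 embryos and lower in 12, with a fitted log2 difference of -0.01 (95% interval from -0.34 to 0.31). The plot of differences in each embryo shows that none of the members separated all embryos the same way.

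**Figure D2:**
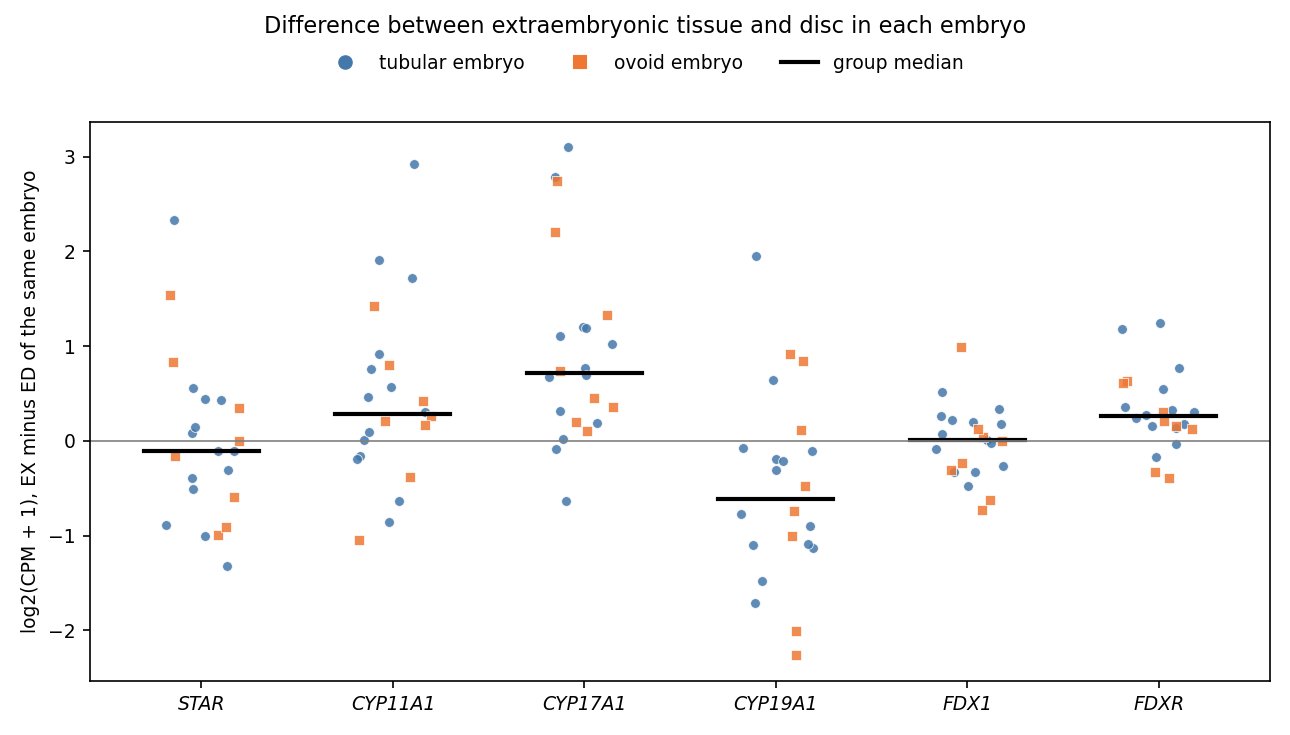
Difference in log2(CPM + 1) between extraembryonic tissue and disc for each of 22 embryos, with a bar at the median and a grey line at no difference. CYP17A1 lies above the line in 20 embryos and CYP19A1 below it in 17, while STAR is spread on both sides.

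Marker transcripts of either tissue were found in both. Summed over 11 measured markers, trophectoderm transcripts had 7195 to 19288 CPM in discs (median 14824) and 16376 to 30465 CPM in extraembryonic tissue (median 20588). The 6 measured epiblast markers summed to 156 to 2580 CPM in discs and to 21.6 to 433 CPM in extraembryonic tissue. Hypoblast transcripts had 528 to 2952 CPM in discs (median 1547) and 321 to 1425 CPM in extraembryonic tissue (median 634), and all 4 tested hypoblast markers were lower there. Of 8 listed markers of binucleate trophoblast 3 were in the table, PAG1, HAND1 and GCM1. They summed to 1.60 to 241 CPM in discs (median 71.8) and to 0.430 to 12.7 CPM in extraembryonic tissue (median 2.87). A sum over these 3 genes does not show that discs held binucleate cells. The part of these cell types in the members' differences was not tested, and in bulk tissue fewer cells of a type and less RNA per cell cannot be told apart. The 6 measured endometrial markers summed to at most 9.74 CPM in discs and 1.75 CPM in extraembryonic tissue. Tissue also moved with sequencing lane, since 21 of 23 discs were in lanes 1 and 2 and 22 of the 23 extraembryonic libraries of these embryos in lanes 3, 4 and 8. Both libraries shared a lane in 1 embryo, so that within embryos tissue and lane cannot be told apart in the members' differences.

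Other genes of the pathway also went both ways between the tissues. In a list of cholesterol supply genes 5 of 16 tested were higher in extraembryonic tissue and 5 lower, with a median log2 fold change of 0.10. SCARB1, the receptor that takes up cholesterol esters from lipoproteins, was higher (1.36, SE 0.15), and LIPA, the lysosomal lipase that frees cholesterol from esters, was lower (-2.66, SE 0.17). Of 11 tested genes of steroid conversion, 5 were higher and 2 lower (median 0.34). HSD17B1, which makes estradiol from estrone, was higher in extraembryonic tissue (1.17, SE 0.24), and SULT1E1, which sulfates estrogens, was lower (-2.27, SE 0.34). Electron donors and other enzymes that use ferredoxin had 6 of 12 higher and 2 lower (median 0.25). The largest difference among them was in CYP27A1, the mitochondrial sterol 27-hydroxylase, which takes electrons from the same ferredoxin and was lower by 7.63 on the log2 scale in the fit, with a median of 13.0 CPM in discs and 0 in extraembryonic tissue. Among steroidogenic regulators 3 of 16 were higher, TFAP2A, ATF3 and PRKAR1A, and 6 lower, including GATA4 (-2.11, SE 0.19) and NR1H3 (-1.35, SE 0.18). None of 3 tested steroid receptors was called. ESR1, the estrogen receptor, named here after its values were seen, had reads in 1 of 22 discs and 4 of 27 extraembryonic libraries.

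Shape was the next comparison, since embryos change from spherical through ovoid to tubular as they elongate. In extraembryonic tissue STAR was higher and CYP19A1 lower in ovoid than in tubular embryos, and the other members were not called. These 2 calls compare with 6.87% of all 11114 tested genes higher and 5.70% lower, 12.6% in all. At an unadjusted p under 0.05 there were 4 members and 34.5% of genes. The members' median was 0.17, beside 0.00 for all genes.

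STAR ran from 5.51 to 50.7 CPM in 9 ovoid embryos (median 13.5) and from 2.34 to 21.3 CPM in 16 tubular embryos (median 5.33). All 9 ovoid libraries lay above the tubular median, 2 of them above every tubular library. The log2 fold change was 1.15 (SE 0.33, adjusted p = 0.0280, edgeR with medium and sex as terms). In discs 0 members and 0 genes were called by edgeR, and 3 members (STAR, CYP11A1 and FDXR) beside 7.30% of genes had an unadjusted p under 0.05. DESeq2 called 0 members and 17 genes there. The fitted difference of STAR in discs was 1.05 (SE 0.37, adjusted p = 0.561). Disc STAR ran from 9.20 to 42.2 CPM in 8 ovoid embryos and from 0 to 19.2 CPM in 14 tubular embryos, and all 8 ovoid discs lay above the tubular median of 5.66. The difference between the tissues in this effect was 0.15 (95% interval from -0.52 to 0.83, adjusted p = 0.854), in a test that called 0 genes and in which 0 members and 14.4% of genes had an unadjusted p under 0.05 (DESeq2 called 0 members and 59 genes).

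CYP19A1 ran from 0.322 to 2.33 CPM in ovoid and from 0 to 7.27 CPM in tubular extraembryonic tissue, with medians of 0.889 and 2.46. Every ovoid library lay below the tubular median, and 9 of 16 tubular libraries lay above the highest ovoid one. The log2 fold change was -1.44 (SE 0.45, adjusted p = 0.0383), and in discs it was -0.79 (SE 0.50) and not called. CYP11A1 was at 1.46 to 24.3 CPM in ovoid and 1.23 to 19.4 CPM in tubular extraembryonic tissue, with a fitted log2 difference of 0.93 (SE 0.33, adjusted p = 0.0626). For FDXR all 9 ovoid libraries (38.6 to 61.2 CPM) lay above the tubular median of 36.1 CPM, with a fitted log2 difference of 0.32 (SE 0.15, adjusted p = 0.128). CYP17A1, the gene with the largest tissue difference, had a fitted log2 difference of 0.02 (95% interval from -0.47 to 0.51).

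Both shape calls moved with recipient cow and sequencing lane. With cow as a block the STAR difference was 0.23 (adjusted p = 0.774) and the CYP19A1 difference -1.15 (adjusted p = 0.276), and 0 genes of the table were called. With lane as a term they were 0.47 (adjusted p = 0.452) and -0.91 (adjusted p = 0.278). Extraembryonic tissue of both shapes was sequenced for 4 cows. In cow 813, the source of 7 tubular and 1 ovoid library, STAR was 2.34 to 6.17 CPM in the tubular and 6.22 CPM in the ovoid. In cow 07 it was 6.66, 12.7 and 37.7 CPM in the ovoid and 4.65 and 21.3 CPM in the tubular. Cow 72 had 19.1 and 50.7 CPM in its ovoid embryos and 7.57 CPM in its tubular one, while cow 12 had 5.51 CPM in its ovoid and 4.51 and 7.23 CPM in its tubular embryos. In lane 3 the 5 ovoid libraries (12.7 to 50.7 CPM) lay above the 3 tubular ones (3.69 to 12.6 CPM). The lowest ovoid and the highest tubular value there were nearly equal, and the share of all genes that separate these libraries was not counted. In lane 4 the 3 ovoid libraries (5.51 to 6.66 CPM) lay within the range of the 9 tubular ones (4.02 to 21.3 CPM). The STAR call was also lost without cow 07, 66 or 813 (adjusted p = 0.0625, 0.177 and 0.229), and the CYP19A1 call without these or cow 12 (adjusted p = 0.162, 0.153, 0.249 and 0.0603).

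**Figure D3:**
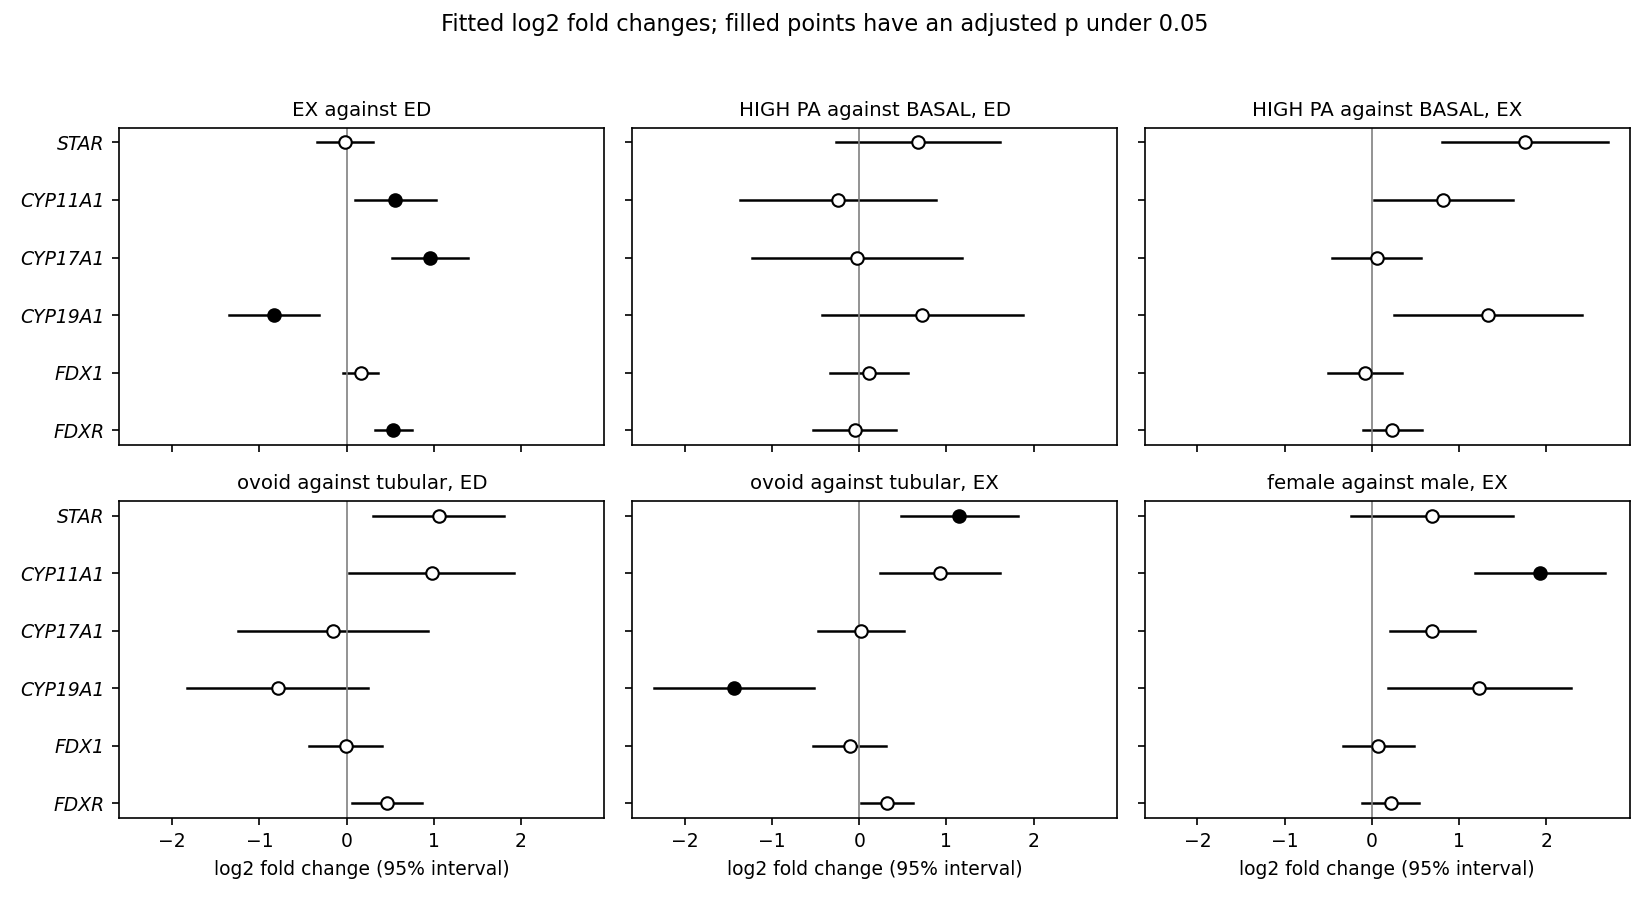
Fitted log2 fold change of each member in 6 comparisons, with its 95% interval, filled where the adjusted p was under 0.05. Filled points stand in the tissue comparison (4 genes), in ovoid against tubular extraembryonic tissue (STAR and CYP19A1) and in female against male extraembryonic tissue (CYP11A1), and none in the comparisons of media.

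Of the other pathway genes, 5 of 17 tested cholesterol supply genes were lower in ovoid extraembryonic tissue and 0 higher. They included SOAT1, which makes cholesterol esters (-0.51, SE 0.16), NPC1, which exports cholesterol from lysosomes (-0.51, SE 0.14), and ACBD3, a Golgi protein that also binds the mitochondrial cholesterol transporter TSPO (-0.54, SE 0.11). In steroid conversion 3 of 11 were lower, HSD17B12 (-1.11, SE 0.19), HSD17B4 and HSD17B7. Of the regulators 3 of 20 were higher, GATA2 (0.57, SE 0.13), NR1H2 (0.55, SE 0.15) and GATA4 (0.50, SE 0.16). The progesterone-binding receptors PAQR8 (-1.49, SE 0.39) and PGRMC1 (-0.42, SE 0.14) were lower, 2 of 5 tested receptors. None of 11 electron donors and ferredoxin users was called. All of these calls, too, were absent with cow as a block. Marker sums overlapped between the shapes, with different medians for some lists. Binucleate trophoblast markers had 1.94 to 12.7 CPM in ovoid (median 4.18) and 0.430 to 11.4 CPM in tubular extraembryonic tissue (median 1.33). Epiblast markers had 63.9 to 279 CPM (median 164) and 21.6 to 184 CPM (median 127). Trophectoderm markers had 17218 to 26964 CPM in ovoid and 16376 to 30465 CPM in tubular extraembryonic tissue, and hypoblast markers 440 to 1056 and 447 to 1425 CPM. Of 11 tested trophectoderm markers 2 were higher and 2 lower in ovoid embryos, and of 6 tested hypoblast markers 2 were higher. The part of these cell types in the members' shape calls was not tested.

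Spherical embryos carried the highest STAR levels. In the 2 spherical extraembryonic libraries, both HIGH PA, STAR was 55.9 and 152 CPM (19 and 162 reads), and all 25 other extraembryonic libraries were lower, with 50.7 CPM as their maximum. CYP19A1 was 11.8 and 31.8 CPM (4 and 34 reads), against at most 7.27 CPM in the others. CYP11A1 was 55.9 and 33.7 CPM (19 and 36 reads), against at most 24.3 CPM. For these 3 genes the spherical libraries thus did not overlap with the other extraembryonic libraries. The share of all genes that separate in the same way was not counted. In a comparison added after the values had been seen, with medium as a term, STAR (log2 fold change 3.09, SE 0.56, adjusted p = 0.000706), CYP11A1 (2.92, SE 0.89, adjusted p = 0.0374) and CYP19A1 (2.52, SE 0.74, adjusted p = 0.0299, all) were higher than in tubular embryos, where 5.75% of all genes were higher and 3.14% lower (8.89% in all). Against ovoid embryos STAR (1.94, SE 0.56) and CYP19A1 (3.86, SE 0.75) were higher, where 3.92% of all genes were higher and 3.06% lower (6.98% in all). At an unadjusted p under 0.05 there were 4 members and 23.0% of genes against tubular, and 2 members and 23.8% of genes against ovoid embryos. FDX1 was at 14.7 and 23.4 CPM, below the median of 31.6 CPM of the other libraries, and was not called.

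Of the other pathway genes, 4 of 11 electron donors and ferredoxin users were lower in spherical than in tubular tissue and 0 higher. Among them was COX15, which makes haem A with electrons from ferredoxin (-2.40, SE 0.48). In cholesterol supply 1 of 17 was higher, NCEH1 (2.28, SE 0.37), and 1 lower, SCARB1 (-2.25, SE 0.47). SULT1E1 was higher (2.92, SE 0.79), 1 of 11 genes of steroid conversion.

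These values rest on shallow libraries of 340016 and 1068407 reads. Both were sequenced in lane 1, which held no other extraembryonic library, so that shape and lane cannot be told apart here. Without EX HIGH PA replicate 10, the deeper of the pair, STAR was at 2.16 (adjusted p = 0.185) and CYP19A1 at 1.55 (adjusted p = 0.605) against tubular embryos. CYP11A1 was not called without either library (2.54, adjusted p = 0.182 without replicate 9 and 3.30, adjusted p = 0.150 without replicate 10). Within HIGH PA alone 0 members were called (STAR 3.32, adjusted p = 0.0541). Epiblast markers summed to 226 and 433 CPM in the spherical libraries and to a median of 127 CPM in tubular ones. Of these markers SOX2 had 0 reads in both shapes and NODAL 0 reads in the spherical libraries. The part of the epiblast markers in the members' levels was not tested.

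The 2 undissected HIGH PA embryos, both male, from cow 66 and sequenced in lane 3, entered no test. In the spherical one STAR was 57.6 CPM and CYP19A1 36.2 CPM (81 and 51 reads), both above every dissected ovoid or tubular library. The ovoid one had 52.9 CPM of STAR (166 reads) but 1.91 CPM of CYP19A1 (6 reads). CYP11A1 was lower in the spherical (7.82 CPM) than in the ovoid embryo (11.8 CPM). Both values lay within the range of the dissected extraembryonic libraries that were not spherical (1.23 to 24.3 CPM). CYP17A1 was 6.39 CPM in the spherical and 0.319 CPM, a single read, in the ovoid embryo. The plot of levels by shape sets them beside the extraembryonic libraries.

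**Figure D4:**
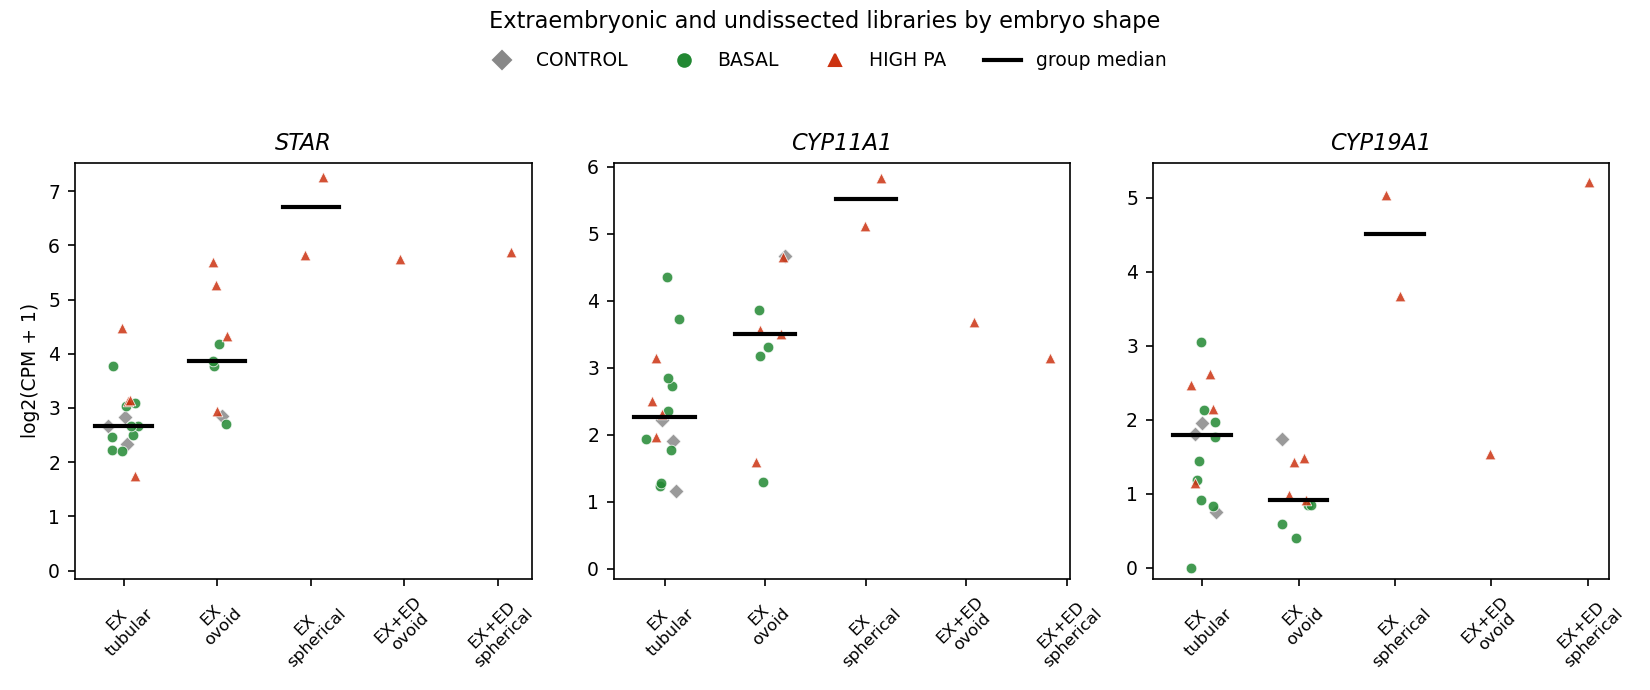
STAR, CYP11A1 and CYP19A1 as log2(CPM + 1) in extraembryonic (EX) and undissected (EX+ED) libraries by embryo shape, with 1 point for each library, its form and colour for the medium and a bar at the median of each extraembryonic group. Spherical embryos, all from HIGH PA medium, hold the highest STAR and CYP19A1 values.

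The comparison of HIGH PA with BASAL addresses what raised palmitic acid during oocyte maturation left behind in embryos of day 14. None of the 6 members was called in either tissue, and 0 of all tested genes were (0% called in discs and in extraembryonic tissue). At an unadjusted p under 0.05, edgeR gave 0 members in discs, where 9.09% of genes passed, and 3 in extraembryonic tissue, STAR, CYP11A1 and CYP19A1, where 4.96% of genes did. DESeq2 called 0 members in either tissue, 2 genes in discs and 0 in extraembryonic tissue.

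STAR had the largest of these differences. In extraembryonic tissue it ran from 3.64 to 17.2 CPM in 13 BASAL libraries (median 5.51) and from 2.34 to 152 CPM in 10 HIGH PA libraries (median 20.2). Of the HIGH PA libraries 9 lay above the BASAL median and 6 above every BASAL library, while the lowest value of both groups was also in HIGH PA. The log2 fold change was 1.76 (SE 0.46, unadjusted p = 0.000733, adjusted p = 0.392). The shapes were not balanced over the media, and all spherical extraembryonic libraries were HIGH PA. Of these the fit held EX HIGH PA replicate 10 but not replicate 9, whose sex was not determined. Without replicate 10 the log2 fold change was 1.26, with shape as a term 0.94 and in tubular embryos alone 0.68. Among ovoid embryos STAR was 5.51 to 17.2 CPM in 4 BASAL and 6.66 to 50.7 CPM in 4 HIGH PA libraries. Among tubular embryos it was 3.64 to 12.6 CPM in 9 BASAL and 2.34 to 21.3 CPM in 4 HIGH PA libraries. CONTROL extraembryonic tissue, with 6.17, 5.34, 4.02 and 6.22 CPM, lay within the BASAL range.

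In discs STAR ran from 4.05 to 21.0 CPM in BASAL (median 11.2, n = 11) and from 1.48 to 42.2 CPM in HIGH PA (median 14.5, n = 8), with a fitted log2 difference of 0.68 (95% interval from -0.26 to 1.62). The CONTROL discs had 0, 3.89 and 5.83 CPM. The effect of HIGH PA on STAR differed between the tissues by 0.34 (95% interval from -0.39 to 1.06, adjusted p = 1.00). That test called 0 members and 0 genes by edgeR or DESeq2, and 0 members and 2.99% of genes had an unadjusted p under 0.05.

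CYP19A1 was low in BASAL extraembryonic tissue (0 to 7.27 CPM, median 0.887), and all 10 HIGH PA libraries lay above that median (0.889 to 31.8 CPM). The log2 fold change was 1.33 (SE 0.52, adjusted p = 0.959). Among ovoid embryos the 4 HIGH PA libraries (0.889 to 1.80 CPM) did not overlap with the 4 BASAL ones (0.322 to 0.798 CPM), each on 1 to 22 reads. The share of all genes that separate these ovoid libraries was not counted. Over all shapes the comparison of the media called 0% of genes. CYP11A1 ran from 1.34 to 19.4 CPM in BASAL and from 2.01 to 55.9 CPM in HIGH PA extraembryonic tissue (log2 fold change 0.82, SE 0.39, adjusted p = 0.987). For CYP17A1 (0.05, 95% interval from -0.46 to 0.57), FDX1 (-0.08, from -0.50 to 0.34) and FDXR (0.24, from -0.10 to 0.57) the intervals included no difference, which does not show that the media act alike.

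Against CONTROL, too, 0 members and 0 genes were called for BASAL or HIGH PA in either tissue. At an unadjusted p under 0.05, 3.43% of genes passed for BASAL and 4.21% for HIGH PA in discs, and 3.37% and 9.67% in extraembryonic tissue. DESeq2 called 0 members in any of these, and 1 gene in each extraembryonic comparison. STAR was the 1 member that passed there, for HIGH PA in discs (log2 fold change 1.81, SE 0.71, unadjusted p = 0.0167) and in extraembryonic tissue (2.32, SE 0.72, unadjusted p = 0.00310). These comparisons share their HIGH PA libraries with those above. Of 10 HIGH PA extraembryonic libraries 9 lay above all 4 CONTROL libraries, which came from cow 813. Within that cow STAR was 4.02 to 6.22 CPM in the 4 CONTROL, 3.64 to 5.31 CPM in 3 BASAL and 2.34 CPM in 1 HIGH PA extraembryonic library. With cow as a block the HIGH PA difference from CONTROL was 0.24 (SE 0.56, unadjusted p = 0.672) in extraembryonic tissue and 0.49 (SE 0.77, unadjusted p = 0.529) in discs.

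None of the wider lists held a called gene between the media. In cholesterol supply the gene of lowest p for HIGH PA against BASAL was NCEH1, which frees cholesterol from esters, in discs (adjusted p = 0.450) and in extraembryonic tissue (log2 fold change 1.11, SE 0.31, adjusted p = 0.392). In steroid conversion it was SULT1E1 in extraembryonic tissue (1.22, SE 0.46, adjusted p = 0.915).

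Embryo sex, a term of these fits, was looked at for the members after their values had been seen. In extraembryonic tissue CYP11A1 was higher in female than in male embryos, 1 of 6 members in a comparison that called 0.630% of genes higher and 0.288% lower, 0.918% in all. At an unadjusted p under 0.05 there were 3 members and 8.12% of genes. It ran from 5.62 to 33.7 CPM in 8 female libraries (median 15.8) and from 1.23 to 13.5 CPM in 18 male libraries (median 3.29). All 8 female libraries lay above the male median, 4 of them above every male library, and 13 male libraries lay below the lowest female one. The log2 fold change was 1.92 (SE 0.36, adjusted p = 0.00508).

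The groups did not overlap in lane 4 (5 female libraries, 5.62 to 24.3 CPM, and 7 male, 1.23 to 4.65 CPM) or in cow 813 (3 female, 12.2 to 24.3 CPM, and 5 male, 1.23 to 7.88 CPM). Some libraries belong to both sets, and the share of all genes that separate in them was not counted. The sexes did overlap in tubular embryos (4 female, 5.62 to 19.4 CPM, and 12 male, 1.23 to 7.88 CPM). They also overlapped in ovoid embryos (3 female, 8.87 to 24.3 CPM, and 6 male, 1.46 to 13.5 CPM). With lane as a term the value was 2.37 (adjusted p = 0.000755), in tubular embryos alone 2.35 (adjusted p = 0.0113) and with cow as a block 2.34 (adjusted p = 0.00275). Without cow 813 it was 1.47 and not called (adjusted p = 0.457), and neither BASAL (1.88, adjusted p = 0.329) nor HIGH PA embryos alone (1.48, adjusted p = 0.583) gave a call. CYP17A1 was 5.69 to 12.7 CPM in female and 1.84 to 10.7 CPM in male libraries (log2 fold change 0.70, SE 0.24, adjusted p = 0.251), and was called only with cow as a block (adjusted p = 0.0488). In discs 0 members were called by edgeR or DESeq2 (0.0543% of genes were lower and 0% higher), and 1 member, CYP19A1, and 8.41% of genes had an unadjusted p under 0.05. CYP11A1 ran from 1.02 to 13.7 CPM in 6 female and from 0 to 17.9 CPM in 16 male discs (log2 fold change 0.47, 95% interval from -0.67 to 1.60). Whether the effect of sex differed between the tissues was not tested.

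**Figure D5:**
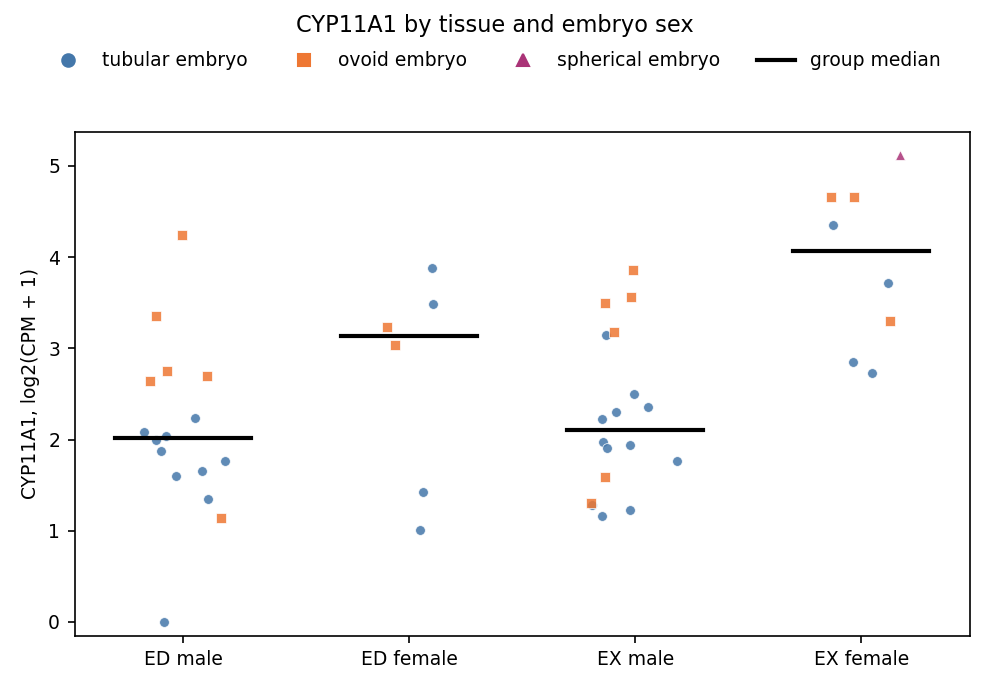
CYP11A1 as log2(CPM + 1) in male and female embryos by tissue, with 1 point for each library, its form for embryo shape and a bar at the group median. In extraembryonic tissue all 8 female libraries lie above the male median of 3.29 CPM, while the sexes overlap in discs.

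The members did not move as a block across libraries. Over 27 extraembryonic libraries, as a description of samples that share cows, media and shape, Pearson's r of log2(CPM + 1) was 0.54 for STAR with CYP11A1, 0.56 for CYP11A1 with both CYP17A1 and FDXR, and 0.34 for STAR with CYP19A1. Within the 16 tubular libraries STAR with CYP11A1 was at -0.24, while CYP11A1 with CYP19A1 stayed at 0.50 and CYP17A1 with FDXR was at 0.78. Over all 27 libraries FDX1 had negative values with each of the other members, down to -0.34 with CYP11A1, while within the tubular ones its value with CYP19A1 was 0.23. In 22 discs r was 0.64 for STAR with CYP11A1 and 0.63 within the 14 tubular ones.

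Over the same 27 extraembryonic libraries, 9258 named genes were ranked by their likeness to each member. The 2 spherical libraries, with the highest STAR values, were among them, and no ranking within a single shape was made. STAR was most like GLMP, a lysosomal membrane protein (r = 0.90), ACO1, cytosolic aconitase (0.88), and AQP3, a water and glycerol channel (0.88). CYP11A1 was most like ATP6AP1, an accessory subunit of the proton pump (0.85), MPP1 (0.84) and UNC13D (0.83). Among the nearest to CYP17A1 were ALAS2, which starts haem synthesis in red cells (0.75), and ARL3 (0.75). Among the nearest to FDXR were COPS7A (0.78) and CLIC1 (0.76), and FDX1 had no partner above NIPSNAP3A (0.65), NQO2 (0.61) and CHMP4C (0.61). CYP19A1, with at least 10 reads in 55.6% of the libraries, was not ranked.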

How the data were processed

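The table deposited by the authors gives, per the file headers, a count of exon reads, of uniquely placed exon reads and of intron reads for each of 53 libraries. Per the labels' protocols, stranded mRNA libraries were made from each tissue; the submitters' processing notes name the build UMD3.1 and the tool DESeq2 1.10.1. No source used here names an aligner. None of 1378 pairs of libraries was identical, and 0 columns belonged to other samples. The 6 members and all gene lists were chosen with earlier results of these data known.

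Exon read counts were fitted with edgeR 4.0.16 (R 4.3.3; quasi-likelihood test, TMM scaling, default filter on low counts by tissue, or by medium and sex) across all genes. Extraembryonic tissue and disc were compared with embryo as a block, media with sex as a term, and shapes with medium and sex as terms. Calls needed a p under 0.05 after Benjamini-Hochberg adjustment. Each SE was derived from the fold change and its F statistic, and intervals are 95%. The spread tested is that between embryos, of which several came from 1 cow. The 1 extraembryonic library of undetermined sex entered fits without a sex term alone. Lanes were read from column names. The code was tested on simulated data. Alternatives used DESeq2 1.42.0 and limma 3.58.1 (voom), other scaling, filters and reads, cow as a block, and left-out cows, libraries, shapes and media. Named genes outside the members were up to 3 called genes of lowest p in each direction per list (or, with 0 called, the lowest p), and the 3 genes most like each member in libraries over 10000 reads, among genes with a median of at least 1 CPM. The text gives a part of them, and some are not reported here. A member was ranked where at least 75% of libraries had 10 reads. HSD3B1 and HSD3B2 were not found under these symbols in the deposited table and were not analysed here.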

Additional observations from a re-analysis of the deposited data

Results flagged for a closer look

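Dixon's criterion for a sample standing apart was applied to each member in the groups of 4 to 10 libraries. Of these 18 tests, 5 marked a library. The tests shared libraries, and the groups mixed shapes and depths. The count of 5 therefore cannot be set against the 1 in 20 that chance marks among independent tests. STAR was 42.2 CPM in ED HIGH PA replicate 7, an ovoid embryo of cow 07, and 152 CPM in EX HIGH PA replicate 10, a spherical embryo. In the same spherical library CYP19A1 was 31.8 CPM. CYP17A1 was 32.4 CPM in EX HIGH PA replicate 9, the other spherical library, on 11 reads among 340016. CYP11A1 was 24.3 CPM in EX CONTROL replicate 4, the 1 ovoid and female library of its group.

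The undissected embryos, which entered no comparison, held values above all 7 CONTROL libraries. STAR was 57.6 CPM in the spherical and 52.9 CPM in the ovoid embryo, against at most 6.22 CPM in CONTROL. CYP19A1 was 36.2 CPM in the spherical embryo, against at most 3.07 CPM, and FDXR was 81.6 CPM in the ovoid embryo, against at most 54.2 CPM. CONTROL libraries came from cow 813 and these embryos from cow 66, so medium, cow and dissection cannot be told apart.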

How the results depend on the processing

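Over all results and alternatives, 659 values kept their direction and side of the threshold, 50 lost their call, 3 gained one and 15 reversed. Of these, 485 came from alternatives fixed at the start and 242 from ones chosen after seeing the data. Direction was not read where the value was within its SE. The cause of the changes below was not tested.

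Between tissues 4 members were called. The fit with no replicate block gave 2, BASAL embryos alone 2, and HIGH PA, CONTROL or ovoid embryos alone 0. CYP19A1 was at 0.12 in CONTROL embryos alone. Between ovoid and tubular extraembryonic tissue 2 were called. DESeq2 or a fit without sex gave 1, and the cow as replicate block, limma-voom, lane as a term, or BASAL or HIGH PA embryos alone gave 0. Leaving out 1 cow gave 0 (07, 66 or 813) to 3 (72). Between spherical and tubular, with 3 called, HIGH PA alone gave 0 and leaving out 1 spherical library 0 to 2. Between spherical and ovoid, with 2 called, DESeq2 gave 1, HIGH PA alone 0, and leaving out 1 library 0 to 2. Between the sexes in extraembryonic tissue 1 was called. The cow as replicate block gave 2, BASAL or HIGH PA alone 0, and leaving out 1 cow 0 (813) to 1.

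The other reversed values were of members not called. In discs STAR in HIGH PA against BASAL ran from -0.29 without cow 07 to 1.21 without cow 66, CYP19A1 was at -0.0057 with no sex term, and STAR in BASAL against CONTROL was at -0.49 with the cow as replicate block. CYP11A1 in HIGH PA against CONTROL in extraembryonic tissue was at -0.17 with lane as a term. For female against male discs in HIGH PA alone, CYP19A1 was at -6.22 and FDXR at 0.035. In extraembryonic tissue the sex difference of STAR was -0.017 with shape as a term, -0.016 in tubular and -0.36 in BASAL embryos. That of CYP19A1 was -0.0068 with limma-voom, -0.10 with lane as a term and -0.96 in HIGH PA alone, where CYP17A1 was at -0.28 and FDXR at -0.56.

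Counts over all genes moved more. The tissue comparison called 5013 genes (1399 to 7901 over alternatives), ovoid against tubular 1396 in extraembryonic tissue (0 to 4082) and 0 in discs (0 to 17), spherical against tubular 979 (150 to 692), spherical against ovoid 768 (7 to 515), and female against male 102 in extraembryonic tissue (2 to 166) and 6 in discs (0 to 41). HIGH PA against BASAL ranged from 0 to 97 in discs and from 0 to 10 in extraembryonic tissue. Depth limits CYP19A1, CYP11A1 and CYP17A1 in discs, where the median library held under 10 reads of each.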
